A study of Mus musculus with 28 samples.

Results

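Histone and DNA modifying enzymes were followed as 35 genes out of 27670 named on the arrays. They were 11 histone deacetylases, 7 sirtuins, 4 core subunits of Polycomb repressive complex 2, 3 DNA methyltransferases, 2 histone acetyltransferases, 5 other histone methyltransferases, the acetyl-lysine reader Brd2 and 2 demethylases of lysine 27 on histone H3. Members were found by gene name, including older names (Jmjd3 for Kdm6b, Utx for Kdm6a, Hdac7a for Hdac7), and each was read from its brightest probe. All 35 passed the filter, which asked for a signal well above background on at least 3 of the 28 arrays and kept 22406 genes.

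The RNA came from bone marrow-derived macrophages of C57BL6/J mice aged 8 to 12 weeks, grown in human CSF1 at 200 ng/ml, with the cells of several animals pooled (2 males and 1 female). All 6 groups carried no engineered allele in the labels and shared the CSF1 culture, so they describe cultured macrophages and not tissue cells. From day 7, cells received IL-4 (10 ng/ml) for 18 h with LPS (10 ng/ml) in the last 4 h (4 arrays) or IL-4 alone (4 arrays), IFN-γ (100 U/ml) for 18 h with LPS in the last 4 h (3 arrays) or IFN-γ alone (3 arrays), LPS alone for 4 h (7 arrays), or neither cytokine nor LPS (7 untreated arrays). Each array held 1 RNA sample with an experiment letter, A to G, and single values below follow the letters (A, B, C and G for IL-4, E, F and G for IFN-γ). A level below is the log2 of the array's processed signal minus the log2 of that array's 75th percentile, and a change is a difference of mean levels with its standard error. A gene was called at a Benjamini-Hochberg adjusted p under 0.05 from limma over all 22406 genes, and p-values measure the spread between these arrays, which may be technical.

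Between 60.3% and 78.7% of gene spots were well above background on each array, and at most 11 were saturated. All 8 macrophage markers were above background on every array of the stimulated groups, and 7 of 8 on every untreated array. The induced check genes followed the array labels: 4 of 4 rose with IL-4, 3 of 3 with IFN-γ and 4 of 4 with LPS, each against untreated cells. The 4 LPS genes also rose with IFN-γ alone (median change 6.44), and 2 of the 3 IFN-γ genes rose with LPS. The direction of these genes thus does not by itself separate IFN-γ arrays from LPS arrays. A deposited table of processed values did not follow the labels, since 13 of its 28 columns best matched an array of another group, and that table was not used. Summed levels of 2 lists for other cells were higher with LPS. The T cell list spanned 0.59 to 2.36 on LPS arrays and -1.82 to -0.83 on untreated arrays, and Lck was the single gene called of its 6 (change 5.09 ± 0.35). The dendritic cell list spanned 0.12 to 2.99 on LPS arrays and -2.93 to -1.35 on untreated arrays, and Zbtb46 was the single gene called of its 3 (change 4.81 ± 0.48). Single genes of the fibroblast list (Dcn, 2.33 ± 0.51) and the neutrophil list (Camp, 1.11 ± 0.31) were higher with LPS too, with overlapping sums. Cd79b (-1.23 ± 0.24), Epor (-1.13 ± 0.33) and Kit (-0.84 ± 0.28) were lower with LPS. With IFN-γ the B cell list spanned 0.39 to 0.75, against 1.09 to 2.08 on untreated arrays, the NK cell list -5.95 to -5.66, against -4.96 to -1.99, and the erythroid list -2.53 to -1.85, against -1.81 to -0.46. Lck (1.75 ± 0.45) and Zbtb46 (2.56 ± 0.62) were higher with IFN-γ, and Cd79b, Klrb1c, Mpo, Elane, Epor and Kit were lower. Marker sums also differed between groups of primed cells. With LPS after IL-4 the B cell list spanned 1.66 to 2.84, against 0.38 to 1.40 with IL-4 alone. The T cell list spanned -0.16 to 1.88, against -1.92 to -0.78 in the same groups. With IFN-γ and LPS the B cell list spanned -0.42 to -0.12, against 0.23 to 1.27 with LPS. The T cell list spanned -1.05 to -0.40 there, against 0.59 to 2.36 with LPS. The part of these markers in the results below was not tested. In these bulk samples, fewer cells of a type and less RNA per cell cannot be told apart.

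Histone deacetylases and sirtuins take acetyl groups off lysines, acetyltransferases put them on, and bromodomain proteins such as Brd2 bind them. Polycomb repressive complex 2 methylates lysine 27 of histone H3, which Kdm6a and Kdm6b reverse, and DNA methyltransferases add methyl groups to cytosines. In macrophages Kdm6b is known as a gene switched on by inflammatory stimuli, and deacetylases are known as partners of the repressors that hold inflammatory genes in check.

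The question of the first comparison was what 4 h of LPS did to the enzyme genes in unprimed cells. LPS lowered 20 members and raised 7, so that 27 of 35 were called, where 42.4% of all tested genes were called (20.9% higher and 21.5% lower). The median change was -0.60 over members and 0.06 over all tested genes. Groups did not overlap for 14 of the 35 members, against 25.3% of all tested genes. Members were chosen with earlier results of these data known, so their excess over all genes is no independent finding. Under normexp 18 were called, 3 higher and 15 lower, without Hdac2, Hdac8, Hdac11, Sirt6, Ezh1, Suz12, Dnmt3b, Setdb2 and Suv39h2. Median scaling called 7 higher and 14 lower, without Hdac2, Hdac8, Hdac6, Sirt7, Ezh1, Eed and Suv39h1. At least 2-fold changes were found in 3 members that rose and 12 that fell. The deepest falls were those of the class IIa deacetylase Hdac5 and the maintenance methyltransferase Dnmt1, and the largest rise was that of the demethylase Kdm6b.

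**Figure D1:**
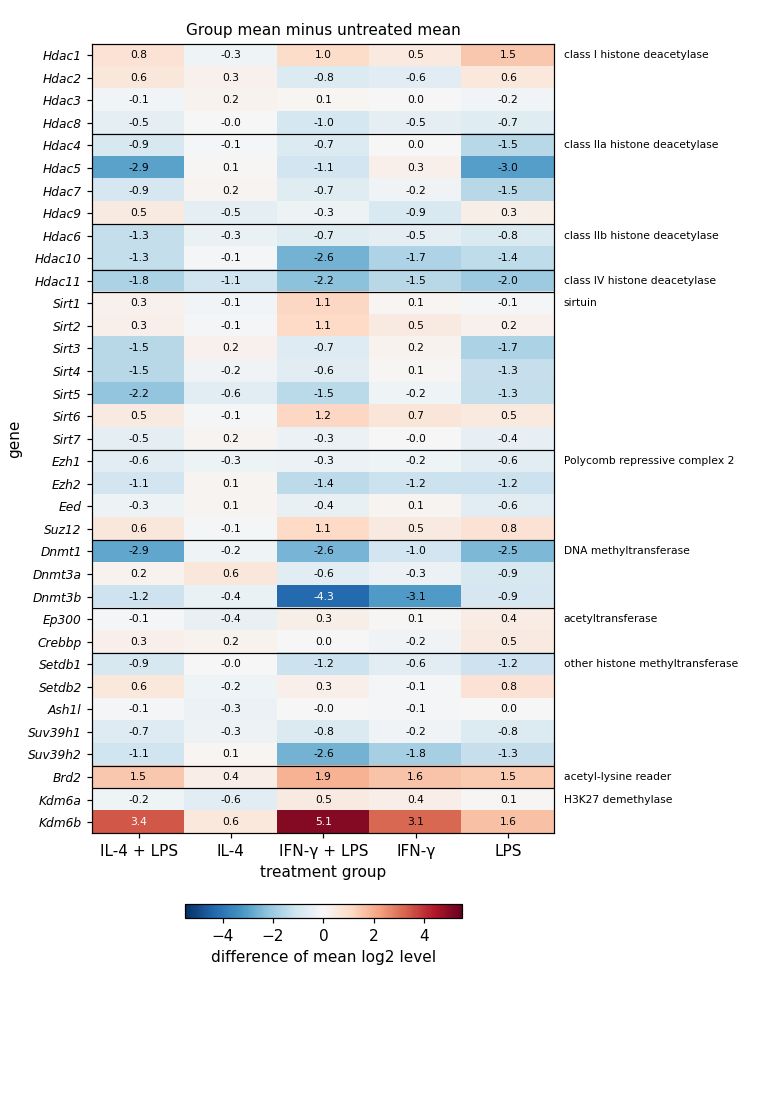
Mean log2 level of each group minus the untreated mean, for the 35 members (rows, sorted by role) in the 5 stimulated groups (columns); red is higher and blue lower than untreated. Hdac5 stands at -3.05 with LPS, Kdm6b at 5.07 with IFN-γ and LPS, and the IL-4 column is pale. Dnmt3b with IFN-γ and LPS, and Hdac11 in all 5 columns, were not well above background.

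Among class I deacetylases, LPS raised Hdac1 and Hdac2, catalytic subunits of nuclear corepressor complexes, and lowered Hdac8. Hdac1 had a lowest, median and highest level of 3.64, 4.16 and 4.54 on LPS arrays, against 2.25, 2.56 and 3.09 on untreated arrays. Every LPS array was above every untreated one, a 2.77-fold rise (1.47 ± 0.16, limma adjusted p = 1.78e-08). Hdac2 changed by 0.59 ± 0.17 and Hdac8 by -0.67 ± 0.16, with overlapping groups in both. Hdac3, an enzyme of nuclear receptor corepressor complexes, was not called (-0.15 ± 0.10).

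Class IIa deacetylases, which shuttle between nucleus and cytoplasm and act mainly through partner complexes, fell in 3 of 4 cases. Hdac5 spanned 0.40 to 2.30 on LPS arrays (median 1.26) and 3.70 to 4.71 on untreated arrays (median 4.42). The groups lay well apart, an 8.26-fold fall (-3.05 ± 0.28, limma adjusted p = 1.19e-09), and within the 5 slides that held both groups the difference ran between -3.70 and -2.31. Hdac4 spanned -1.37 to -0.98 with LPS (median -1.14) and -0.14 to 0.58 untreated (median 0.48), again without overlap (-1.52 ± 0.14, adjusted p = 1.91e-09). Hdac7 changed by -1.52 ± 0.24, also without overlap. Hdac9 was not called in this comparison (0.33 ± 0.22), with medians of -0.44 on LPS arrays and -0.53 on untreated arrays and overlapping ranges.

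The class IIb enzymes both fell. Hdac10, known as a polyamine deacetylase, changed by -1.41 ± 0.19 without overlap, and Hdac6, which deacetylates tubulin, by -0.81 ± 0.19 with overlap. Hdac11, the class IV enzyme, was not well above background on any of the 7 LPS arrays and was so on 4 of 7 untreated arrays. With the lowest level of any gene spot well above background on each LPS array as the floor, its fall was at least 1.08-fold. Measured means were -8.02 on LPS arrays and -6.01 on untreated arrays (limma adjusted p = 7.79e-06). Hdac11 passed the filter only through untreated arrays, where it was higher, so this call is no independent support for a fall. A filter asking for every array of a group left Hdac11 out.

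Of the sirtuins, NAD-dependent deacylases, the 3 mitochondrial members fell together. Sirt3, the main mitochondrial deacetylase, spanned 0.98 to 1.72 on LPS arrays (median 1.24) and 2.59 to 3.49 on untreated arrays (median 3.09), a 3.32-fold fall (-1.73 ± 0.16, limma adjusted p = 2.3e-09). Sirt5, which removes succinyl and malonyl groups, spanned -1.67 to -0.86 with LPS (median -0.98) and -0.04 to 0.37 untreated (median 0.24), a change of -1.30 ± 0.14. Sirt4 changed by -1.25 ± 0.18, and none of these 3 had overlapping groups. The nucleolar Sirt7 changed by -0.45 ± 0.14 and the chromatin-bound Sirt6 by 0.53 ± 0.20, both with overlap. Nuclear Sirt1 (-0.09 ± 0.17) and the mainly cytoplasmic Sirt2 (0.22 ± 0.15) were not called.

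All 3 DNA methyltransferases fell. Dnmt1, which copies methylation after replication, had a lowest, median and highest level of -1.35, -0.61 and 0.78 on LPS arrays, against 1.24, 2.23 and 2.93 on untreated arrays. The ranges did not meet, a 5.58-fold fall (-2.48 ± 0.38, limma adjusted p = 6.07e-06). The de novo enzymes fell less and overlapped. Dnmt3a changed by -0.88 ± 0.25, with medians of 0.05 on LPS arrays and 1.02 on untreated arrays. Dnmt3b changed by -0.91 ± 0.23, with medians of -4.21 and -3.36 on the same groups.

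In Polycomb repressive complex 2 the subunits moved in different directions. The catalytic subunit Ezh2 spanned -0.80 to -0.06 on LPS arrays (median -0.45) and 0.12 to 1.22 on untreated arrays (median 0.88), a fall without overlap (-1.16 ± 0.22, limma adjusted p = 7.23e-05). Its paralog Ezh1 and the methyl-lysine reader Eed each changed by -0.60, whereas the scaffold Suz12 changed by 0.78 ± 0.21. Ezh1, Eed and Suz12 overlapped between groups.

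Of the other histone methyltransferases, the lysine 9 enzymes Setdb1, Suv39h1 and Suv39h2 fell. Setdb1 changed by -1.15 ± 0.13 without overlap (limma adjusted p = 3.32e-08), Suv39h1 by -0.76 ± 0.16 and Suv39h2 by -1.26 ± 0.31. Setdb2, assigned to the same lysine, was higher: it spanned -3.15 to -1.87 with LPS (median -2.59) and -3.79 to -2.70 untreated (median -3.37), a change of 0.80 ± 0.25 with overlap. Ash1l, a lysine 36 methyltransferase, and the acetyltransferases Ep300 and Crebbp were called in none of the 10 comparisons. Their changes with LPS were 0.00 ± 0.22, 0.40 ± 0.21 and 0.48 ± 0.22.

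Brd2, a BET-family reader, had a lowest, median and highest level of 6.15, 6.41 and 6.72 on LPS arrays, against 4.49, 5.02 and 5.26 on untreated arrays. The groups were well apart, a 2.75-fold rise (1.46 ± 0.19, limma adjusted p = 4.28e-07). Kdm6b had -1.17, -1.05 and -0.36 on LPS arrays, against -3.14, -2.63 and -1.61 on untreated arrays. Its groups were narrowly apart, a 3.03-fold rise (1.60 ± 0.36, adjusted p = 0.000594). Kdm6a, its X-linked relative, was not called (0.07 ± 0.20).

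Arrays were spread over 10 slides, and 5 slides held both LPS and untreated arrays. Of the 27 called members, 26 changed in the same direction on all 5 slides, and Sirt7 did so on 4. With the slide as a block 30 members were called, 9 higher and 21 lower. The values under the block stayed close, such as -3.01 for Hdac5, -2.52 for Dnmt1 and 1.64 for Kdm6b. Sirt6 was not called when LPS array A, C or E, or untreated array B, C or D, was left out.

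The promoters of the members with the largest changes are shown because the enzyme genes moved in groups and cytokine and LPS signalling act through short DNA motifs. Each run is the RefSeq window of 250 bases before to 50 after a start, build GRCm38.p6, read 5′ to 3′ on the gene's strand, with any searched motif in capitals. The table held 43 such windows for 30 of the 35 members, and Kdm6b was not among them. For Dnmt1, which has 3 windows, the one with a match is printed. They are, in order, chr11:102230123-102230422 (minus strand), chr9:20952574-20952873 (minus strand) and chr2:153649199-153649498 (plus strand).
Hdac5: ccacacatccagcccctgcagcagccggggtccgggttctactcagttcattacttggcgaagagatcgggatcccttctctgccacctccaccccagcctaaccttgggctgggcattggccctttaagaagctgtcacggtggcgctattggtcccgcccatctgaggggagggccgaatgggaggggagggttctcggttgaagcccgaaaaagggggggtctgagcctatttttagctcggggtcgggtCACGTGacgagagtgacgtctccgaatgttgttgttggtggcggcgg
Dnmt1: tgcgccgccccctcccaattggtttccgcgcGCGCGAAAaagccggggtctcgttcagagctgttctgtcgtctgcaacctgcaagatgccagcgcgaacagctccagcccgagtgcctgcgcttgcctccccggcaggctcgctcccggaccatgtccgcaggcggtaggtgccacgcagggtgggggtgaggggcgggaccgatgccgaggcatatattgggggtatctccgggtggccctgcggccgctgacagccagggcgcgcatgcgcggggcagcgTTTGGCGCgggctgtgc
Dnmt3b: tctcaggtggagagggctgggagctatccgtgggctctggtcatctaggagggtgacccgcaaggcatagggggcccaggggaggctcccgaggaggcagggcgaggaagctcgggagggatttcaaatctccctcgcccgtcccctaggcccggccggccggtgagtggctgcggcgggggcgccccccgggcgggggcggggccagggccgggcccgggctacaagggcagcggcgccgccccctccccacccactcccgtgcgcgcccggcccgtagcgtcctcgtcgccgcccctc
Hdac5 carries an E box, CACGTG, just after its start. Dnmt1 carries GCGCGAAA, which is the E2F-type TTTCGCGC read on the other strand, and the second E2F-type motif TTTGGCGC. Dnmt3b has no match to any searched motif.

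Over all 43 member windows, both strands were searched, and the motifs do not contain one another. TTTCGCGC was in 1 of the 43 member windows (Dnmt1, 2.33%) and in 0.323% of the 32851 windows of the table. TTTGGCGC was in 2 member windows (Dnmt1 and Ezh2, 4.65%) and in 0.514% of all. These counts are too small to compare shares. The E box was in 9.3% of member windows (Dnmt3a, Hdac5, Kdm6a and Sirt1) and 7.15% of all. The STAT6 type, TTC and GAA with 4 bases between, was in 9.3% of member windows and 6.95% of all. The NF-κB type, GGG and TTTCC with 2 bases between, was in 4.65% of member windows (Hdac9 and Setdb1) and 1.63% of all. The interferon response element type, a pair of GAAA with 2 bases between, was in no member window and in 3.44% of all. TGACGTCA was in 2.33% of member windows and 1.79% of all, and TGA with TCA after 1 base in 4.65% and 7.81%. Matches describe letters in these windows and not bound sites.

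The second comparison asked what IL-4 priming alone did. Of the members, only Sirt5 was called, and it fell, where 11.3% of all tested genes were called (5.77% higher and 5.53% lower). Its 4 IL-4 arrays had levels of -0.47, -0.47, -0.40 and -0.47, against -0.04 to 0.37 on untreated arrays (median 0.24). The groups did not overlap, although the change was small (-0.64 ± 0.16, limma adjusted p = 0.00966). It was -0.53 with the slide as a block and between -0.71 and -0.52 within the 2 slides that held both groups, and it was not called under median scaling or the normexp background correction. At an unadjusted p under 0.05 there were 5 members. The median change was -0.08 over members and 0.01 over all tested genes, and Sirt5 was the only member whose groups were apart, against 12.7% of all tested genes.

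Other members did not pass the test with IL-4. Kdm6b had -2.38, -1.83, -0.91 and -2.69 on the IL-4 arrays, overlapping the untreated range given above (0.58 ± 0.42). Dnmt3a had 2.22, 1.96, 0.96 and 1.32 on the IL-4 arrays, against 0.40 to 1.62 on untreated arrays (median 1.02), with a change of 0.64 ± 0.29. Hdac9 changed by -0.54 ± 0.25, Ezh2 by 0.15 ± 0.25 and Setdb2 by -0.24 ± 0.29.

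IFN-γ priming alone was the third comparison. IFN-γ changed 10 of 35 members, where 25.9% of all tested genes were called, with 2 higher (12.7% over all genes) and 8 lower (13.2%). The share of members is thus near that of all genes. Kdm6b and Brd2 rose, and Dnmt3b, Suv39h2, Hdac10, Hdac11, Ezh2, Hdac9, Hdac2 and Setdb1 fell. The median change was -0.09 over members and -0.28 over all tested genes, and under median scaling, which moves the all-gene median to 0.16, the members split into 5 higher and 4 lower, without Hdac2, Hdac9, Ezh2 and Setdb1. Normexp did not call Hdac2, Hdac11, Dnmt3b, Setdb1 and Suv39h2.

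Kdm6b had 1.75, 0.74 and -0.65 on the IFN-γ arrays of experiments E, F and G, against -3.14 to -1.61 on untreated arrays. All IFN-γ arrays were higher, with a spread of more than 2 log2 units among them, and the mean difference was 8.86-fold (3.15 ± 0.46, limma adjusted p = 1.13e-05; within 2 slides 3.24 and 3.47). Brd2 had 6.23, 6.07 and 7.33 on the IFN-γ arrays, against 4.49 to 5.26 untreated, without overlap (1.57 ± 0.24, adjusted p = 2.17e-05).

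Dnmt3b was the member that fell most. It had -7.24, -6.12 and -6.18 on the IFN-γ arrays, of which 1 was well above background, against -3.86 to -2.97 on untreated arrays (median -3.36). The ranges were far apart, and no fold is given because of the dim arrays (difference of measured levels -3.11 ± 0.30, limma adjusted p = 1.6e-08; -3.42 with the slide as a block). Under normexp, whose offset draws dim probes together, Dnmt3b was not called (adjusted p = 0.118). Dnmt3b passed the filter through groups without IFN-γ, where it was higher. Its calls against groups with IFN-γ are therefore no independent support for a fall. Its relatives Dnmt1 (-1.05 ± 0.49) and Dnmt3a (-0.34 ± 0.32) were not called.

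The other falls with IFN-γ were led by Suv39h2 and Hdac10. Suv39h2 had -5.09, -5.07 and -3.64 on the IFN-γ arrays, against -3.63 to -2.12 on untreated arrays (median -2.52), barely apart (-1.84 ± 0.40, limma adjusted p = 0.0011), and it was not called under normexp (adjusted p = 0.194), quantile normalization or the mean of all probes. Hdac10 had -0.74, 0.07 and 0.29, against 1.27 to 1.80 untreated, and was clearly apart (-1.69 ± 0.24, adjusted p = 9.21e-06). Ezh2 had -0.60, -1.06 and 0.14, against 0.12 to 1.22 untreated, where array G overlapped (-1.20 ± 0.28, adjusted p = 0.00193). Hdac11 was not well above background on any IFN-γ array. With a floor set as for LPS, its fall was at least 1.72-fold (measured means -7.53 and -6.01 for IFN-γ and untreated arrays, limma adjusted p = 0.00643). This call carries the same limit from the filter as that with LPS.

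Hdac9, Hdac2 and Setdb1 changed by -0.85 ± 0.28, -0.61 ± 0.22 and -0.61 ± 0.16. Hdac9 was not called with the slide as a block (limma adjusted p = 0.136), nor was Hdac11 (0.0884). With the slide block 14 members were called in all, 4 higher and 10 lower. Hdac2 was not called when any of 7 arrays was left out, IFN-γ E, F and G and untreated A, B, D and F. Hdac9 was not called without IFN-γ E or F, Setdb1 without IFN-γ E, and Hdac11 without IFN-γ G.

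A direct comparison of the cytokines, IL-4 over IFN-γ, called 11 members where 27.9% of all tested genes were called (14.9% higher and 13.1% lower). Dnmt3b, Suv39h2, Hdac10, Ezh2, Dnmt3a, Hdac2 and Setdb1 were higher with IL-4 and Kdm6b, Brd2, Kdm6a and Hdac1 were lower. Dnmt3b had -4.15, -3.92, -3.39 and -3.64 on IL-4 arrays, all above background, against the IFN-γ values given above, without overlap (2.73 ± 0.33, limma adjusted p = 4.16e-07), a call lost under normexp (adjusted p = 0.127). Kdm6b was 5.93-fold lower with IL-4 (-2.57 ± 0.51, adjusted p = 0.000385), again without overlap. Brd2 had 5.33, 5.06, 5.12 and 5.80 with IL-4, all below the 3 IFN-γ arrays (-1.22 ± 0.27).

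Kdm6a had -2.05, -1.85, -2.32 and -2.60 on IL-4 arrays, against -0.81, -0.93 and -2.03 on IFN-γ arrays, where array G overlapped (-0.95 ± 0.29, limma adjusted p = 0.0137). The mean over all its probes gave the opposite sign (0.57). IL-4 and IFN-γ arrays shared no slide, so no within-slide value exists. With the slide as a block, Hdac1 (-0.48) and Dnmt3a (0.37) were not called, and 12 members were called in all. Dnmt3a was not called without IL-4 array A or B or IFN-γ array E or F, Setdb1 without IL-4 array G or IFN-γ array E or F, and Kdm6a without IFN-γ array E or F. Under median scaling 2 members were higher and 5 lower, without Hdac1, Hdac2, Hdac10, Ezh2, Dnmt3a and Setdb1.

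**Figure D2:**
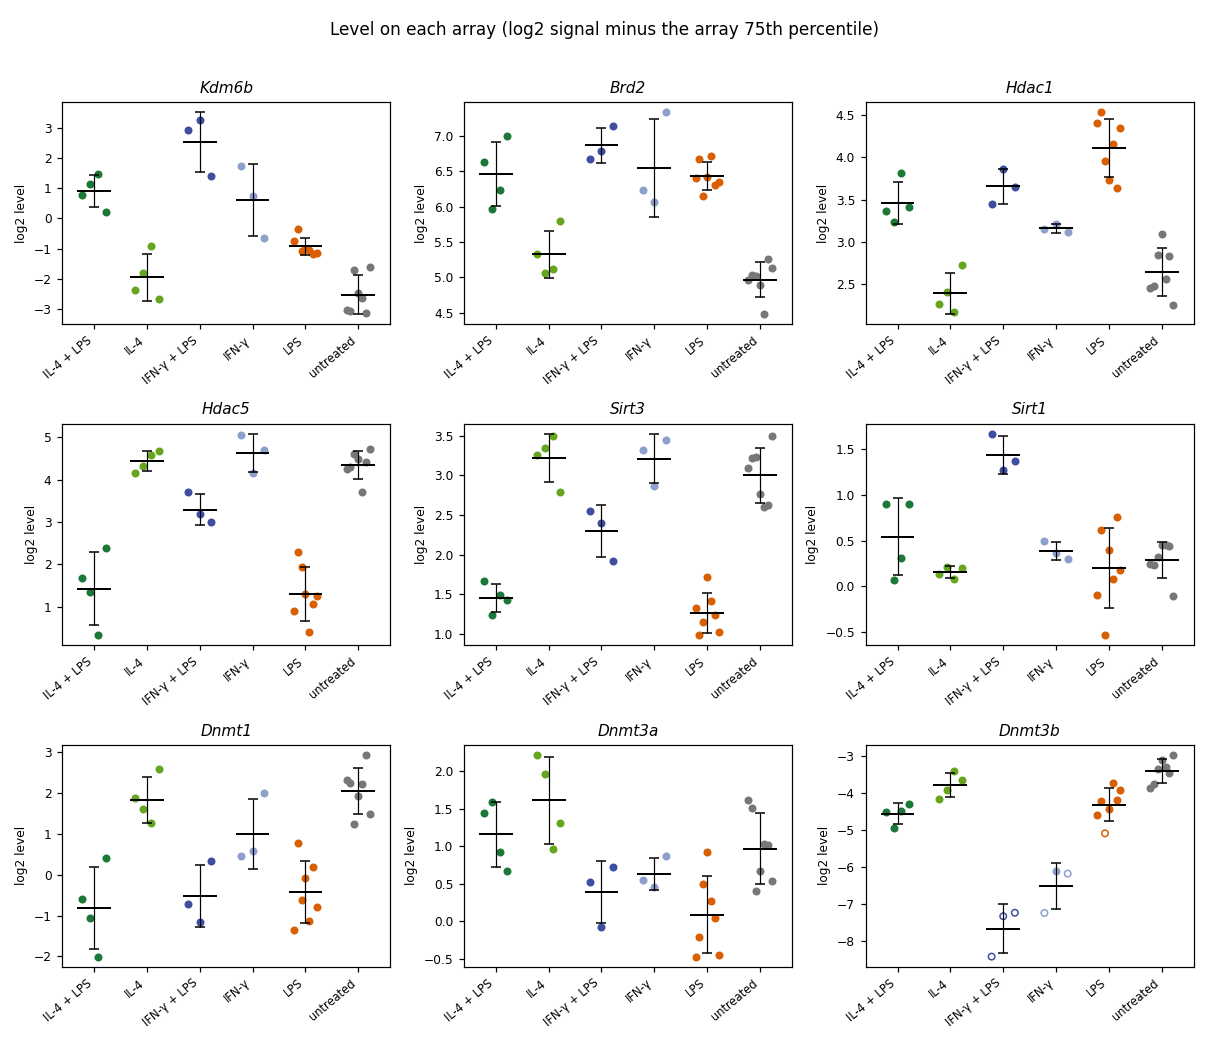
Level of 9 members on each array (y axis, log2 signal minus the array's 75th percentile) in the 6 groups (x axis); points are arrays, open points are not well above background, lines and bars are the mean ± SD. Kdm6b lies between 1.41 and 3.25 on the arrays with IFN-γ and LPS and between -3.14 and -1.61 on untreated arrays, and 5 of the 6 open Dnmt3b points lie in the IFN-γ groups.

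LPS on top of IL-4 was compared with IL-4 alone, which asks what LPS did in IL-4-primed cells. LPS changed 19 members in IL-4-primed cells, 5 higher and 14 lower, where 31.2% of all tested genes were called (15% higher and 16.3% lower). Groups were apart for 19 members, against 29.9% of all tested genes. Hdac5 had 1.67, 1.34, 0.33 and 2.39 with IL-4 and LPS, against 4.16, 4.32, 4.58 and 4.69 with IL-4 alone, an 8.04-fold fall without overlap (-3.01 ± 0.37, limma adjusted p = 3.51e-07). Dnmt1 had -0.60, -1.06, -2.01 and 0.41, against 1.89, 1.60, 1.26 and 2.59 with IL-4 alone, a 6.26-fold fall (-2.65 ± 0.50). Sirt3 had 1.67, 1.24, 1.49 and 1.42, against 3.25, 3.34, 3.49 and 2.78 with IL-4 alone (-1.76 ± 0.22). None of these 3 genes had overlapping groups.

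Sirt5, Sirt4, Ezh2, Hdac10, Suv39h2, Hdac7, Hdac6, Setdb1, Hdac4, Sirt7 and Hdac3 also fell, by -1.54 for Sirt5 to -0.36 for Hdac3. The rises were led by Kdm6b, with 0.77, 1.14, 1.47 and 0.22 with IL-4 and LPS, against -2.38, -1.83, -0.91 and -2.69 with IL-4 alone. That is 7.23-fold, without overlap (2.85 ± 0.47, limma adjusted p = 2.93e-05; 2.38 to 3.52 within 4 slides). Brd2 (1.13 ± 0.25), Hdac1 (1.07 ± 0.21), Hdac9 (1.03 ± 0.29) and Suz12 (0.74 ± 0.28) rose as well. Hdac9 had -0.43, -0.10, 0.37 and -0.32 with IL-4 and LPS, against -0.93, -0.97, -2.20 and -0.48 with IL-4 alone, where the low value of array C set most of the spread. With the slide as a block 31 members were called, 11 higher and 20 lower, Setdb2 (0.80) and Dnmt3a (-0.45) among them. Median scaling did not call Hdac1, Hdac3, Hdac9, Hdac6, Suz12, Suv39h2 and Brd2, and normexp did not call Hdac3, Hdac7, Sirt7, Suz12 and Suv39h2. Hdac3 was not called without any 1 of 7 of the 8 arrays, the exception being IL-4 with LPS array G. Suz12 was not called without IL-4 array A, B or C or IL-4 with LPS array A, C or G, and Suv39h2 without IL-4 array A, B or G or IL-4 with LPS array B or C.

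In IFN-γ-primed cells LPS changed 8 members, where 11.9% of all tested genes were called (5.63% higher and 6.26% lower). Kdm6b and Sirt1 rose, and Hdac5, Sirt5, Dnmt3b, Sirt3, Hdac10 and Hdac4 fell. Kdm6b had 2.95, 3.25 and 1.41 with IFN-γ and LPS, against 1.75, 0.74 and -0.65 with IFN-γ alone, with overlap between arrays of different experiments and a rise within each of the 3 (1.92 ± 0.55, limma adjusted p = 0.0204). Sirt1 had 1.67, 1.27 and 1.37, against 0.50, 0.37 and 0.30 with IFN-γ alone, without overlap (1.05 ± 0.26, adjusted p = 0.00765). Hdac5 had 3.71, 3.18 and 2.99, against 5.06, 4.16 and 4.70, also without overlap (-1.34 ± 0.42, adjusted p = 0.0379).

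Sirt5 had -1.54, -1.26 and -1.10 with IFN-γ and LPS, against -0.36, -0.05 and 0.24 with IFN-γ alone, without overlap (-1.24 ± 0.21, limma adjusted p = 0.000268). Sirt3, Hdac10 and Hdac4 changed by -0.92 ± 0.25, -0.90 ± 0.29 and -0.74 ± 0.22. Dnmt3b was called lower (adjusted p = 0.0307), but it was not well above background on any of the 3 IFN-γ and LPS arrays and was so on 1 of 3 IFN-γ arrays, so no fold is given, and its sign turned under normexp (1.29). This comparison rested on few arrays, and each call but that of Sirt5 was lost without at least 1 of the 6. Without IFN-γ array G 2 members were called (Sirt1 and Sirt5), without IFN-γ and LPS array E or F 4, and in a fit of these groups alone 0, against 18 with the slide as a block. With the experiment letter as a block 7 were called, and Hdac5 was not (adjusted p = 0.0653).

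**Figure D3:**
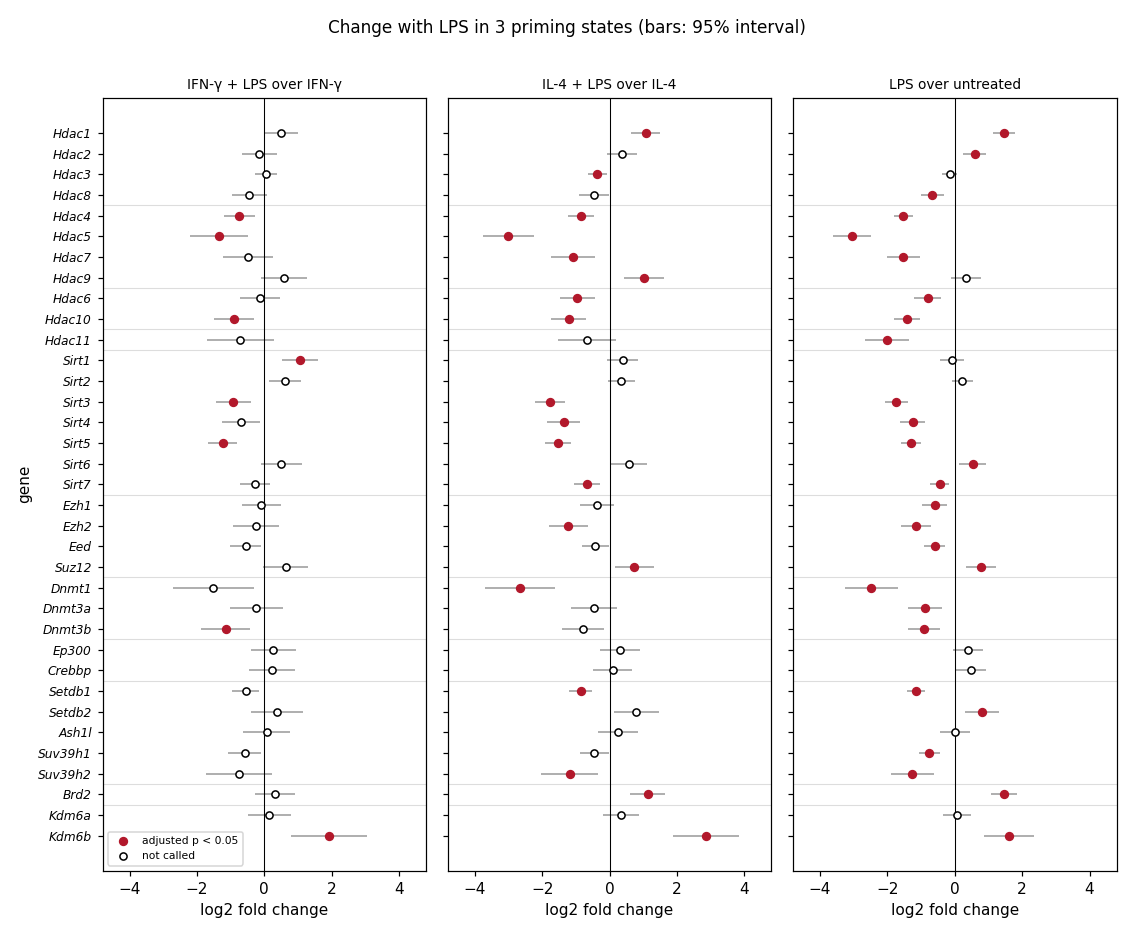
Change with LPS (x axis, log2 fold change with 95% interval) of the 35 members (y axis, sorted by role) in IFN-γ-primed, IL-4-primed and unprimed cells; filled red points were called. The Hdac5 point lies at -1.34 in IFN-γ-primed cells, at -3.01 in IL-4-primed cells and at -3.05 in unprimed cells.

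Whether priming altered the LPS change was tested as an interaction, which subtracts the LPS change of unprimed cells from that of primed ones. With IL-4 no member was called, where 1.59% of all tested genes were (0.906% higher and 0.683% lower), and 3 members had an unadjusted limma p under 0.05. They were Hdac4 (0.68 ± 0.24), Hdac11 (1.34 ± 0.52, not well above background in most arrays) and Kdm6b (1.25 ± 0.59, adjusted p = 0.621). The slide as a block called 1 member.

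With IFN-γ 4 members were called, where 8.32% of all tested genes were (3.03% higher and 5.29% lower). Hdac5 (1.70 ± 0.51, limma adjusted p = 0.0352) fell less with LPS in IFN-γ-primed than in unprimed cells. Sirt1 (1.14 ± 0.31, adjusted p = 0.0202) rose in IFN-γ-primed cells and was not called in unprimed cells. Brd2 (-1.14 ± 0.34, adjusted p = 0.0384) and Hdac1 (-0.97 ± 0.28, adjusted p = 0.033) gained less with LPS after IFN-γ than without it. Brd2 had 6.67, 6.78 and 7.14 with IFN-γ and LPS, against the 6.23, 6.07 and 7.33 with IFN-γ alone. Hdac1 had 3.45, 3.87 and 3.65 with IFN-γ and LPS, against 3.14, 3.21 and 3.11 with IFN-γ alone. These 4 calls were not firm: no member was called without IFN-γ array G, without IFN-γ and LPS array E, under median scaling or under normexp, 1 without LPS array A, 2 with the letter block (Sirt1 and Brd2), and 14 with the slide block.

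Among LPS-treated cells, IL-4 priming was set against no priming. Of the members 5 were called, where 8.98% of all tested genes were called (4.37% higher and 4.6% lower). Kdm6b, Dnmt3a and Hdac4 were higher with IL-4 and LPS, and Sirt5 and Hdac1 were lower. Kdm6b had the 4 values from 0.22 to 1.47 given above, against -1.17 to -0.36 on LPS arrays, 3.56-fold and without overlap (1.83 ± 0.42, limma adjusted p = 0.00495; 1.91 with the slide as a block and 0.58 to 2.53 within 4 slides), and the call was lost under normexp (adjusted p = 0.0912). Dnmt3a had 1.44, 1.59, 0.93 and 0.67 with IL-4 and LPS, against -0.47 to 0.92 with LPS (median 0.05), with overlap (1.07 ± 0.29, adjusted p = 0.0193). Hdac4 had -0.63, -0.40, -0.62 and -0.46, against -1.37 to -0.98, without overlap (0.63 ± 0.17, adjusted p = 0.0152).

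Sirt5 had -2.10, -1.62, -2.37 and -1.87 with IL-4 and LPS, against -1.67 to -0.86 with LPS, with 1 array in the overlap (-0.87 ± 0.16, limma adjusted p = 0.000727). Hdac1 had 3.37, 3.23, 3.81 and 3.41, against 3.64 to 4.54, with overlap (-0.65 ± 0.18, adjusted p = 0.0226), and it was not called with the letter block (adjusted p = 0.079). Without IL-4 and LPS array B the call of Hdac1, Hdac4 and Dnmt3a was lost and 2 members stayed called. Without array A, Hdac1 and Dnmt3a were lost, and without array G, Hdac1. Under median scaling 2 members were called, both higher, without Hdac1, Hdac4 and Sirt5, which normexp did not call either.

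IFN-γ priming among LPS-treated cells gave 11 called members, where 22.8% of all tested genes were called, with 7 higher (10.7% over all genes) and 4 lower (12.1%). Kdm6b, Hdac5, Sirt1, Sirt3, Sirt2, Hdac7 and Hdac4 were higher, and Dnmt3b, Hdac2, Suv39h2 and Hdac10 were lower. Kdm6b had 2.95, 3.25 and 1.41 with IFN-γ and LPS, against -1.17 to -0.36 with LPS, 11.1-fold and well apart (3.47 ± 0.46, limma adjusted p = 5.26e-06). Hdac5 had 3.71, 3.18 and 2.99, against 0.40 to 2.30, 3.96-fold (1.99 ± 0.36, adjusted p = 0.000202). Sirt1 had 1.67, 1.27 and 1.37, against -0.53 to 0.76 (1.24 ± 0.22, adjusted p = 0.000163), likewise without overlap.

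Sirt3 (1.02 ± 0.21), Sirt2 (0.87 ± 0.19), Hdac7 (0.85 ± 0.31) and Hdac4 (0.79 ± 0.18) were higher than with LPS by less. Against untreated cells, mean levels with IFN-γ and LPS were lower for Hdac5 (-1.06), Sirt3 (-0.71), Hdac7 (-0.68) and Hdac4 (-0.73). They were higher for Kdm6b, Sirt1 and Sirt2. Hdac7 overlapped and was not called when IFN-γ and LPS array E, F or G, or LPS array A, B, D, F or G, was left out. Dnmt3b was not well above background on any IFN-γ and LPS array (mean -7.66) and was so on 6 of 7 LPS arrays (mean -4.31), so no fold is given. The difference of measured levels was -3.35 ± 0.30 (limma adjusted p = 1.46e-08), with the filter limit given above for Dnmt3b. Under normexp that change was -0.11 and was not called (adjusted p = 0.92). Hdac2 had -2.92, -2.72 and -2.19, against -1.66 to -0.76, without overlap (-1.34 ± 0.22, adjusted p = 5.37e-05). Hdac10 changed by -1.18 ± 0.24 without overlap.

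Suv39h2 changed by -1.34 ± 0.40 (limma adjusted p = 0.0168) between IFN-γ with LPS and LPS, but another probe of the gene gave 1.23, the only such contradiction with an unadjusted p under 0.05 on both sides among the members. It was also not called without IFN-γ and LPS array E or F, and Hdac4 was not called without array E. With the slide as a block 16 members were called, 9 higher and 7 lower. Under median scaling 9 were higher and 1 lower, without Hdac2, Hdac10 and Suv39h2, and normexp did not call Hdac2, Hdac7, Sirt2, Sirt3 and Suv39h2.

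**Figure D4:**
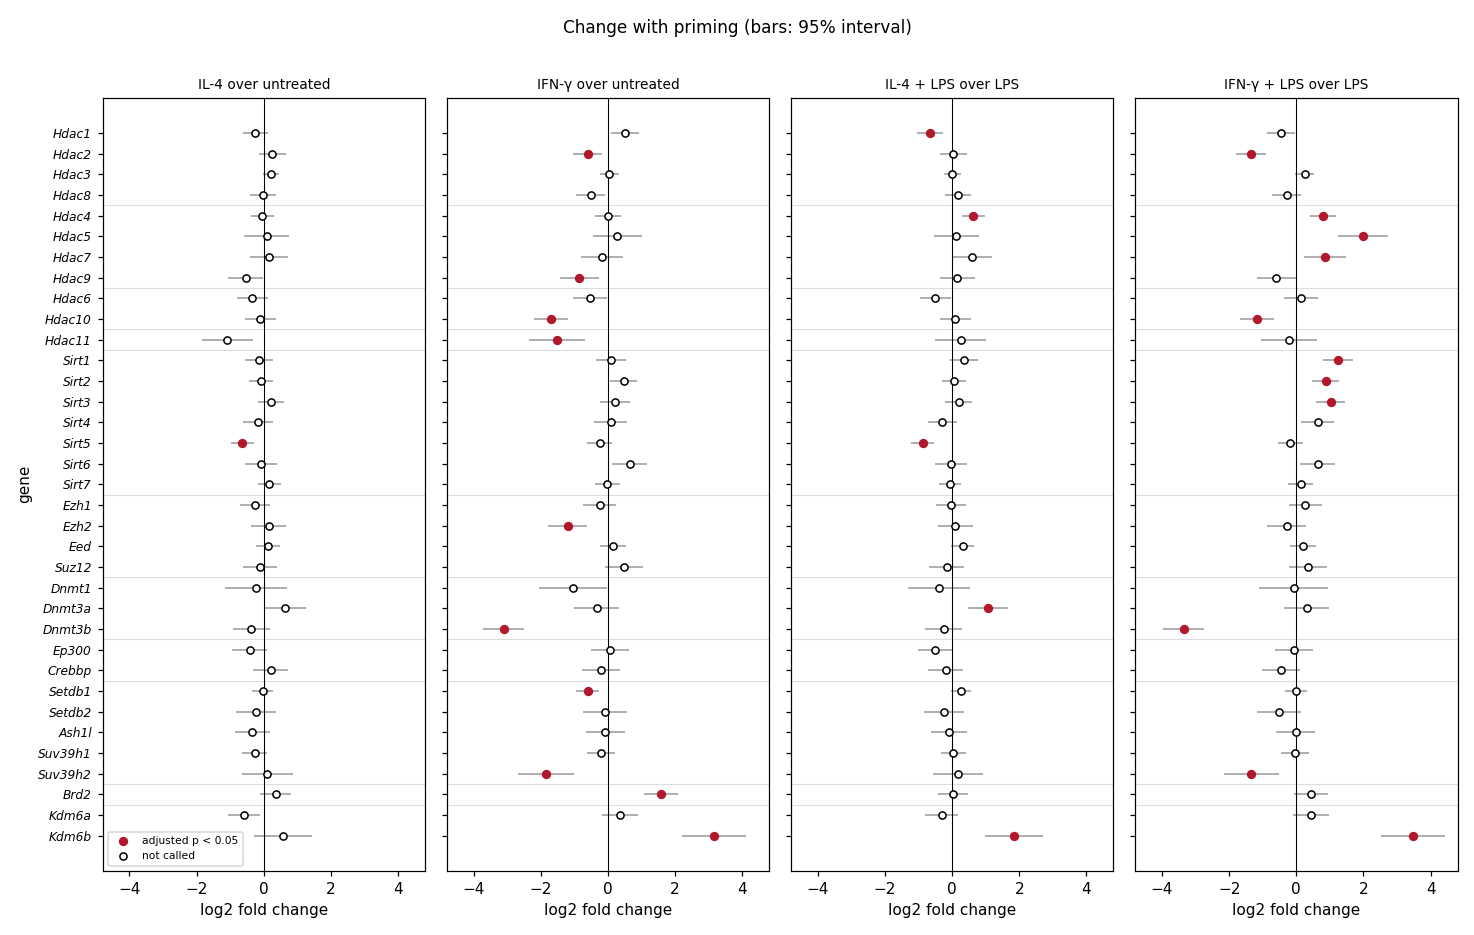
Change with priming (x axis, log2 fold change with 95% interval) of the 35 members (y axis) for IL-4 and IFN-γ, each without LPS and with LPS; filled red points were called. Called members number 1 and 10 without LPS, and 5 and 11 with LPS, for IL-4 and IFN-γ in turn.

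Over the 10 comparisons, which reuse the same 6 groups, 9 members were called in 5 or more. The matching share over all tested genes was not computed, so this count shows no trait of the members. The span between the highest and lowest group mean ran from 0.34 to 5.07 log2 units, with a median of 1.34. Kdm6b had the widest span, with its highest mean in IFN-γ and LPS cells (2.54 ± 0.99, SD, n = 3) and its lowest in untreated cells (-2.53 ± 0.64, SD, n = 7). Its order from the top was IFN-γ with LPS, IL-4 with LPS (0.90 ± 0.54, n = 4), IFN-γ (0.61 ± 1.20, n = 3), LPS (-0.93 ± 0.29, n = 7), IL-4 (-1.95 ± 0.78, n = 4) and untreated. The ranges of all 5 pairs of neighbours in this order overlapped.

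Proliferation markers moved with several of these changes. Of 25 markers, 19 fell and 0 rose with LPS (median change -1.55), 20 fell and 0 rose with IFN-γ (-2.18), and 18 fell and 0 rose with LPS in IL-4-primed cells (-2.11). With IL-4 alone 0 were called (-0.01), and with LPS in IFN-γ-primed cells 2 fell and 1 rose (-1.12). Bub1b, a spindle checkpoint kinase, changed by -3.28 ± 0.40 with LPS, and Plk1, a mitotic kinase, by -3.00 ± 0.46 with IFN-γ. With IFN-γ and LPS over LPS 15 fell and 0 rose (-1.64). Over all tested genes 21.5% fell with LPS, 13.2% with IFN-γ and 16.3% with LPS in IL-4-primed cells. The shares that fell were 6.26% with LPS in IFN-γ-primed cells and 12.1% with IFN-γ and LPS over LPS. Dnmt1 and Ezh2 are known to be higher in dividing cells, and the part of proliferation in their changes was not tested.

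Other genes of the same pathways were counted from lists of relatives and partners. Among 19 DNA demethylation and maintenance partners, 10 rose and 6 fell with LPS, where 20.9% of all tested genes rose and 21.5% fell. Gadd45b, a stress gene tied to demethylation, changed by 3.60 ± 0.23 and Tet2, which oxidises methylcytosine, by 3.22 ± 0.28, while the Dnmt1 cofactor Uhrf1 changed by -2.59 ± 0.63 and the repair glycosylase Mbd4 by -2.64 ± 0.20. With IFN-γ 6 rose and 0 fell, where 12.7% of all tested genes rose and 13.2% fell. With IL-4 alone, where Sirt5 was the only member called, Tet2 rose (1.06 ± 0.32) and the cytidine deaminases Apobec3 (-1.78 ± 0.33) and Apobec1 (-1.08 ± 0.18) fell.

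Among 28 Polycomb partners 10 rose and 11 fell with LPS, where 20.9% of all tested genes rose and 21.5% fell. The Polycomb repressive complex 1 subunit Pcgf5 changed by 3.00 ± 0.16 and the complex 2 cofactor Aebp2 by 2.42 ± 0.22, and the chromodomain proteins Cbx8 and Cbx6 by -4.87 ± 0.30 and -3.93 ± 0.33. Of 21 other lysine demethylases 5 rose and 6 fell with LPS, led by Kdm4a (2.24 ± 0.15) and Kdm2b (-2.46 ± 0.15). With IFN-γ and LPS over LPS 8 rose and 1 fell, where 10.7% of all tested genes rose and 12.1% fell. Kdm4d (3.26 ± 0.61), Kdm5b (1.95 ± 0.42) and Kdm3a (1.92 ± 0.35) were among those that rose.

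Of 35 other histone methyltransferases 7 rose (20%) and 10 fell (28.6%) with LPS, where 20.9% of all tested genes rose and 21.5% fell. Nsd3 changed by 1.69 ± 0.17 and Kmt5c by -2.80 ± 0.19. Of 16 other acetyltransferases 6 rose and 7 fell, with Hat1 at 1.45 ± 0.18 and Kat6b at -2.40 ± 0.27. Of 25 deacetylase corepressor partners 5 rose and 9 fell, with the Sin3 subunit Sap30 at 2.10 ± 0.16 and the CoREST-family gene Rcor3 at -1.54 ± 0.22. Of 25 other bromodomain readers 10 rose and 7 fell, with Phip at 2.19 ± 0.17 and Atad2 at -2.84 ± 0.30. The median LPS change in these lists ran from -0.27 over the corepressor partners to 0.40 over the demethylation partners. It was -0.60 over the members and 0.06 over all tested genes.

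**Figure D5:**
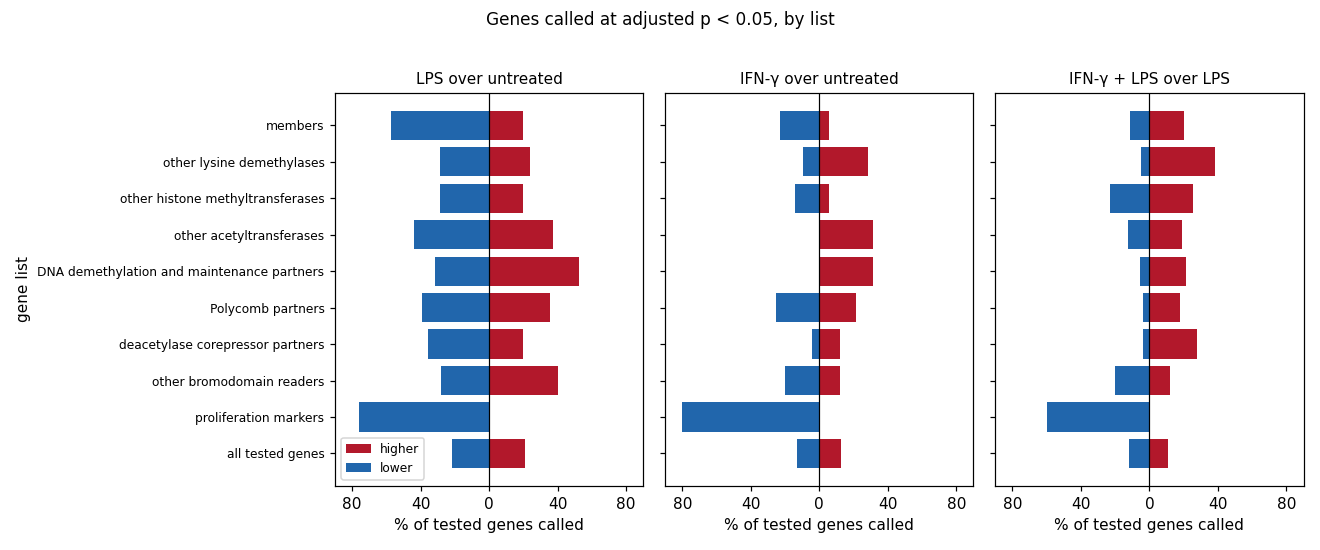
Share of tested genes called (x axis, percent; red to the right is higher, blue to the left is lower) in the members, 8 other lists and all tested genes (y axis), for LPS over untreated, IFN-γ over untreated, and IFN-γ with LPS over LPS. With LPS 57.1% of members were lower and 20% higher, against 21.5% and 20.9% of all tested genes. Members and lists were chosen with earlier results of these data known.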

How the data were processed

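RNA of 28 macrophage samples was hybridised to 1-colour Agilent mouse arrays. The deposited scanner files hold spot intensity, background-subtracted by the scanner software, per the file headers, and Agilent Feature Extraction 9.5.1 is named in the submitters' processing notes. From these files, log2 processed signal was taken and each array's 75th percentile subtracted, control spots and outlier flags were left out, and spots of 1 probe were averaged. Of 41174 gene probes, 22902 were named by accession, 6647 by symbol and 3108 by synonym in RefSeq tables, and 8455 kept the file's name. The brightest probe stood for a gene, and 62 probes covered the members, 19 of which had 1 probe. Genes well above background on at least 3 of 28 arrays were kept.

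Tests used limma 3.58.1 in R 4.3.3: 1 model of 6 group means, 10 contrasts and Benjamini-Hochberg adjustment over 22406 genes at 0.05. The fit was also run on simulated data with independent arrays, which cannot show how shared slides affect the calls. Figures were drawn with matplotlib 3.10.9. The number of arrays limits the precision. Members and lists were chosen with earlier results of these data known. Named members were, in each comparison, up to 3 with the largest rise and up to 3 with the largest fall among those called, and always Kdm6b, Ezh2, Hdac9, Dnmt3a and Setdb2. Up to 3 called genes per list and direction were named. Other members that the text gives with values were added after their values were seen.

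The deposited table of the authors' processed log2 values was not used. Each of its 28 columns matched 1 scanner file at r of 0.9985 or more (next best at most 0.9747), but only 2 columns matched their own sample and 13 matched a sample of another group. Its column medians ran from -0.266 to 0.590, and every probe's median over columns named untreated was 0, so its values are centred on that set, and its assignment to samples is in doubt. Which experiment letter belongs to which untreated or LPS array is likewise uncertain. Deviations from group means correlated between arrays of the same letter at 0.157 to 0.728 for the 4 IL-4 pairs, with and without LPS. For the 3 IFN-γ pairs these values were 0.279 to 0.637, and each of these pairs also shared a slide. For the 7 untreated and LPS pairs they ran from -0.498 to 0.165. Arrays on a shared slide correlated at 0.394 to 0.728 for IL-4 and at 0.422 to 0.645 for untreated and LPS. Pairing by letter and by slide cannot be told apart for the IFN-γ arrays. Alternatives were the normexp background correction, quantile and median scaling, 2 other filters, slide, scan day or letter as a block, the mean of all probes, fits of the compared groups alone, and leaving out single arrays. Leaving out the 6 arrays of the last scan day was added after the data were seen. Results for some items are not reported here.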

Additional observations from a re-analysis of the deposited data

Results flagged for a closer look

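In all, 4 single values lay far from the rest of their group among 76 groups checked for 19 members. Chance gives about 1 such value in 20 groups. The IFN-γ groups, with and without LPS, were not checked. Hdac4 (-0.14) and Sirt1 (-0.11) were lowest on untreated array G. Kdm6a was lowest on IL-4 with LPS array G (-2.53), and Sirt5 was highest on IL-4 array C (-0.40), where the other 3 arrays were nearly equal.

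The LPS change differed between IFN-γ-primed and unprimed cells for 4 members by limma's interaction test. The difference, primed minus unprimed, was 1.70 for Hdac5, 1.14 for Sirt1, -1.14 for Brd2 and -0.97 for Hdac1. None of the 4 was called under median scaling or normexp.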

How the results depend on the processing

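The counts of members called moved by over 1.5 times under these settings. Normexp gave 0 for IL-4 over untreated, 5 for IFN-γ over untreated, 3 for LPS in IFN-γ-primed cells, 1 and 5 for IL-4 and IFN-γ priming under LPS, 4 for IL-4 over IFN-γ and 0 for the IFN-γ interaction. Median scaling gave 0 for IL-4, 12 and 3 for LPS after IL-4 and after IFN-γ, 2 for IL-4 priming under LPS, 7 for IL-4 over IFN-γ and 0 for the IFN-γ interaction. The slide block gave 31 and 18 for LPS after IL-4 and after IFN-γ, and 1 and 14 for the IL-4 and IFN-γ interactions. The scan day block gave 4 for IL-4, 17 for LPS after IFN-γ and 10 for the IFN-γ interaction. The letter (replicate) block gave 2 for the IFN-γ interaction. Its other counts did not move by over 1.5 times. They were 27, 1, 9, 21, 7, 4, 11, 10 and 0 in the order LPS, IL-4, IFN-γ, LPS after IL-4, LPS after IFN-γ, IL-4 and IFN-γ under LPS, IL-4 over IFN-γ and IL-4 interaction. The mean of all probes gave 3 for IL-4 and 7 for IL-4 over IFN-γ. Without the last scan day, an alternative added after seeing the data, there were 2 for IL-4 and 2 for LPS after IFN-γ. Fits of the compared groups alone gave 0 for LPS after IFN-γ, 3 for IL-4 priming under LPS and 7 for IL-4 over IFN-γ. Leaving out single arrays, given for all comparisons whether the count moved or not, gave 26 to 29 for LPS, 1 to 2 for IL-4, 7 to 12 for IFN-γ, 16 to 22 and 2 to 9 for LPS after IL-4 and after IFN-γ, 2 to 5 and 8 to 13 for IL-4 and IFN-γ priming under LPS, 8 to 13 for IL-4 over IFN-γ, 0 to 0 for the IL-4 interaction and 0 to 4 for the IFN-γ interaction. Signs turned for Dnmt3b with LPS after IFN-γ (1.29, normexp), Suv39h2 with IFN-γ under LPS (0.012, normexp) and Kdm6a for IL-4 over IFN-γ (0.57, mean of all probes); the cause was not tested. Median scaling split the called members 1 higher and 11 lower for LPS after IL-4. The counts of all genes called for LPS over untreated were 9504, 5548 under normexp and 12939 with the slide block. The authors' value table was not run, since its columns did not match the samples.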
